A study of Mus musculus with 30 samples.

Results

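Tumours of 2 clones of 1 mouse melanoma line were compared while both were under a RAF and MEK inhibitor combination. The tested samples were 3 RAFi/MEKi-treated tumours of clone 2646R, set against 3 RAFi/MEKi-treated tumours of clone 2646TN, which are 6 of the 30 libraries of the series. They were chosen by the clone and treatment that their labels give, and no measured value entered the choice. Both clones come from YUMM1.7, a melanoma line that was grown under the skin and is labelled with the strain C57BL/6, and both carry GFP and a CaTCH barcode, by which single clones can be pulled out of a mixed population. Beside the treated pair, 3 untreated tumours of 2646R and 3 of 2646TN were used, as well as 3 treated tumours of clone 14559R and 3 of clone 14559TN. The labels give no age and no doses, and they do not spell out R and TN. Each name stands for 1 clone, so the spread in every test below is that between tumours of a clone and not between clones of a kind.

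RAF and MEK inhibitors block the kinase chain that runs from RAS to ERK, which melanomas with an activating Braf mutation use to drive division. YUMM1.7 was made from a mouse melanoma with such a mutation and with loss of Cdkn2a. Interferons are secreted cytokines that act through JAK kinases and factors such as STAT2 and IRF9, and the genes they turn on restrict viruses and load peptides onto MHC class I molecules for display to T cells.

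Libraries were made with a 3′ mRNA kit, so a level is a count of reads near the end of a transcript, given as CPM, the count scaled to the total of its library. The treated 2646R libraries held 4612122, 4376975 and 3994624 counts, and the treated 2646TN libraries held 3467941, 3022801 and 3994405. The third treated 2646TN library stood apart from its group: 408 genes in it were over 2-fold below both other libraries, against 105 and 146 for those libraries themselves. Differences are log2 fold changes of treated 2646R over treated 2646TN with their standard error, and every adjusted p is a Benjamini-Hochberg value from edgeR's quasi-likelihood test over 13286 genes, with a gene called at an adjusted p under 0.05.

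The label melanoma rests on few pigment genes in these libraries. Mlana, Tyr, Tyrp1 and Dct, which define pigmented melanocytes, had no count in any of the 6 libraries, and the 10 melanocyte and melanoma markers together came to 37.6 to 43.6 CPM in treated 2646R and 35.1 to 47.2 CPM in treated 2646TN. Mitf, the master factor of the lineage, was present in all 6. The inhibitor target Braf had 102 ± 7.25 CPM in treated 2646R and 85.5 ± 16.8 CPM in treated 2646TN (SD, n = 3 each) and was not called (adjusted p = 0.233). Cdkn2a averaged 1.88 ± 0.343 CPM in treated 2646R and 4.66 ± 2.62 CPM in treated 2646TN and was not called either (adjusted p = 0.0873). A 3′ tag outside a deleted part says nothing about the deletion.

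Treated 2646R tumours differed from treated 2646TN tumours at 2669 genes, 20.1% of those tested. Of these, 1333 were higher in treated 2646R, 10.0% of all genes, and 1336 were lower, 10.1%. The counts of list members below are to be read beside these shares. The median over all tested genes was -0.005. All 3 treated 2646R libraries lay above all 3 treated 2646TN libraries at 2306 genes, 17.4% of those tested, and below them at 2281, 17.2%. Among the called genes, 187 were higher and 287 lower by a log2 fold change of at least 2. The count of lower genes was 848 without the second treated 2646R library and 839 without the third treated 2646TN library.

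**Figure D1:**
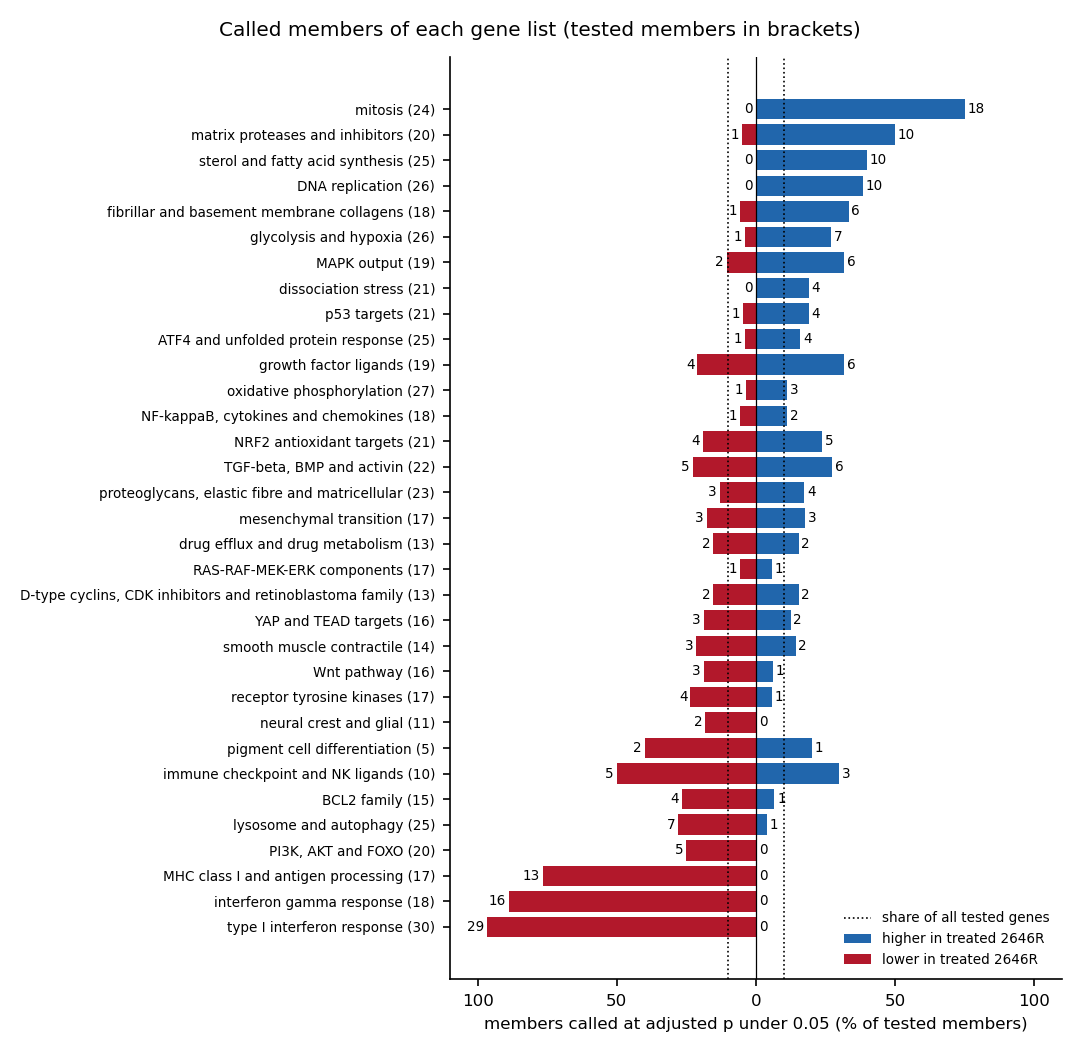
Share of the tested members of each gene list that were called higher (blue, to the right) or lower (red, to the left) in treated 2646R against treated 2646TN, in percent. The dotted lines mark the share of all tested genes called in each direction, 10.0% and 10.1%. The 3 interferon and MHC class I lists extend furthest to the lower side, and mitosis and matrix proteases reach far to the higher side.

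The largest block of difference was the interferon response, which was lower in treated 2646R. Of the 30 tested members of the type I interferon list, 29 were called lower and none higher, and the list's median log2 fold change was -3.40. In the interferon gamma list 16 of 18 were lower and none higher, with a median of -2.94. In the MHC class I and antigen processing list 13 of 17 were lower and none higher, with a median of -1.84. Since these are bulk samples of sorted cells, fewer cells with an active response and less of the RNA per cell cannot be told apart.

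The signalling factors themselves were among the lower genes. Stat2, which carries the type I signal to DNA with IRF9, had 10.4, 14.5 and 19.2 CPM in treated 2646R, against 153, 118 and 158 CPM in treated 2646TN. The groups lay far apart, with a log2 fold change of -3.29 ± 0.26 (adjusted p = 8.73e-10). Irf7, the factor that amplifies interferon production, had 3.91, 3.51 and 11.1 CPM in treated 2646R and 163, 164 and 236 CPM in treated 2646TN (-4.94 ± 0.52, adjusted p = 6.92e-07). Irf9 averaged 45.1 ± 7.13 CPM in treated 2646R and 205 ± 22.4 CPM in treated 2646TN (-2.19 ± 0.26, adjusted p = 1.10e-06). Irf7 and Irf9 are list members that were named after their values were seen.

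The receptors upstream, also looked up after the list values were seen, did not pass the test. Ifnar1 and Ifnar2, the type I receptor chains, averaged 13.7 ± 3.18 and 31.2 ± 2.87 CPM in treated 2646R, and 13.2 ± 2.66 and 31.8 ± 1.45 CPM in treated 2646TN. Their log2 fold changes were 0.06 ± 0.25 and -0.03 ± 0.19, and neither was called (adjusted p = 0.894 and 0.941). Jak1, the kinase bound to both kinds of interferon receptor, had -0.06 ± 0.12 (adjusted p = 0.786). Ifngr1, a chain of the gamma receptor, averaged 61.0 ± 8.51 CPM in treated 2646R and 85.4 ± 6.97 CPM in treated 2646TN and was not called either (adjusted p = 0.0723).

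Antiviral effectors were lower as well. Oas2, which makes the second messenger that activates an RNA-degrading enzyme, had 0.217, 0 and 0.253 CPM in treated 2646R, against 18.4, 21.1 and 20.7 CPM in treated 2646TN. That is 2 counts in all 3 treated 2646R libraries and 212 in the treated 2646TN libraries, a ratio of 129 of 2646TN over 2646R with a 95% Poisson interval of 35.6 to 1061. Cmpk2, a nucleotide kinase that lies beside the antiviral gene viperin, had 0, 0.469 and 1.52 CPM in treated 2646R and 43.2, 30.8 and 46.9 CPM in treated 2646TN (-5.94 ± 0.82, adjusted p = 1.33e-05). Mx2, a dynamin-like restriction factor, averaged 1.74 ± 1.04 CPM in treated 2646R and 29.0 ± 7.45 CPM in treated 2646TN (-4.05 ± 0.45, adjusted p = 1.21e-07). Ifi27l2a had 3.08 ± 0.982 CPM in treated 2646R and 110.3 ± 28.4 CPM in treated 2646TN (-5.16 ± 0.45, adjusted p = 7.60e-09). Ddx60, a helicase of antiviral sensing, differed by -4.09 ± 0.52 (adjusted p = 7.43e-06). The 1 type I member without a call was Zbp1, a nucleic acid sensor, with 13.7, 2.34 and 8.10 CPM in treated 2646R and 19.2, 37.7 and 17.9 CPM in treated 2646TN (adjusted p = 0.0882). It was called with the 6 treated libraries alone (0.048) and with no filter on low counts (0.000159).

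Of the 12 lower genes with the largest fold change, several are interferon-induced, and their promoters were read from RefSeq (build GRCm38.p6) to show where the letters of the interferon-stimulated response element lie. Among the 24 genes named by size, 12 in each direction, 16 had a promoter window in that table, 7 of the lower and 9 of the higher genes. The motif, which is GAAA, 2 bases of any kind and GAAA again, searched on both strands from 250 bases before to 50 bases after each start, was present in 2 of the 7 lower genes, Phf11b and Ifi206, and in 0 of the 9 higher genes. Over all 32851 windows of that length 3.44% hold it. The stretches shown run from 150 to 26 bases before the start, 5′ to 3′ on the gene's own minus strand, with the motif in capitals: it lies 50 to 41 bases before the start in Phf11b (chr14:59341356-59341480) and 40 to 31 bases before the start in Ifi206 (chr1:173491344-173491468).
Phf11b: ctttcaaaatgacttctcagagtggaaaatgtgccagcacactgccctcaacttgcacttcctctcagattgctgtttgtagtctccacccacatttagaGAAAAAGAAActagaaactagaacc
Ifi206: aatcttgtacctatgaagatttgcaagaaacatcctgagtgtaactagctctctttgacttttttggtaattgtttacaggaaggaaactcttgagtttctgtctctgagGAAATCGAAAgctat
A match of letters does not show that a factor binds there, and the windows of Cmpk2, Aim2 and H2-Q7 hold no such letters.

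Both genes with the motif were close to absent in treated 2646R. Phf11b, which encodes a PHD finger protein, had 0.434, 1.64 and 1.52 CPM in treated 2646R, against 37.0, 62.0 and 67.6 CPM in treated 2646TN (-5.53 ± 0.61, adjusted p = 4.95e-07). Ifi206, a member of the interferon-induced Ifi200 family of DNA-binding proteins on chromosome 1, had 0, 0.469 and 0.506 CPM in treated 2646R and 7.34, 16.6 and 14.4 CPM in treated 2646TN (-5.21 ± 1.07, adjusted p = 0.00107). Its neighbour Aim2, the sensor of cytosolic DNA that starts an inflammasome, had 0, 0 and 1.26 CPM in treated 2646R and 22.9, 27.9 and 30.8 CPM in treated 2646TN (-6.01 ± 0.88, adjusted p = 4.16e-05). Members of this family are alike in sequence, so the split of reads among them is uncertain. The other motifs searched were the AP-1 site TGANTCA and the cyclic AMP element TGACGTCA, in none of the 16 genes, the E-box CACGTG, the TEAD site GGAATG and the hypoxia element ACGTG. They occur in 7.81%, 1.79%, 7.15%, 14.7% and 19.6% of all windows, in that order, and the letters of the hypoxia element lie inside the E-box. The E-box was found in Tnfrsf19 and Pdpn, the TEAD letters in Aim2, Ifi206, Cd200, Tnnt2 and Tshz3, and the hypoxia letters in Tnfrsf19, H2-Q7, Enpp1, Pdpn, Rbfox1 and Tshz3.

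Several interferon-induced GTPases, proteins that attack the vacuoles of intracellular parasites and bacteria, were among the lower genes. Igtp had 20.6, 21.3 and 38.2 CPM in treated 2646R, against 388, 359.7 and 542 CPM in treated 2646TN (-4.01 ± 0.57, adjusted p = 4.41e-05). Iigp1 averaged 80.0 ± 36.1 CPM in treated 2646R and 1366 ± 50.2 CPM in treated 2646TN (-4.10 ± 0.67, adjusted p = 0.000187). Among the guanylate-binding proteins Gbp3 differed by -3.70 ± 0.50, Gbp7 by -2.83 ± 0.39 and Gbp8 by -5.48 ± 0.70 (adjusted p = 2.14e-05, 2.14e-05 and 6.29e-06). Gbp11 had 3 counts over the treated 2646R libraries and 141 over the treated 2646TN libraries, a ratio of 57.0 of 2646TN over 2646R (95% Poisson interval 19.5 to 276), and near-identical Gbp copies make the split of reads uncertain. Cxcl10, a chemokine for T cells named after its values were seen, averaged 26.1 ± 13.0 CPM in treated 2646R and 112 ± 12.8 CPM in treated 2646TN (-2.11 ± 0.51, adjusted p = 0.0054). The 2 gamma-list members without a call were Cd74, the MHC class II chaperone (-0.91 ± 0.46, adjusted p = 0.171), and Socs1, a feedback inhibitor of JAK kinases (-0.65 ± 0.41, adjusted p = 0.282). Cd74 was called with the 6 treated libraries alone (0.0304) and with no filter on low counts (0.0126).

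The class I presentation machinery was lower from the heavy chains to the peptide supply. B2m, the invariant light chain and one of the most abundant transcripts, had 2157, 2257 and 2879 CPM in treated 2646R, against 7022, 8922 and 5717 CPM in treated 2646TN (-1.57 ± 0.33, adjusted p = 0.00146). Tap1, a subunit of the peptide transporter, had 30.8, 23.2 and 45.8 CPM in treated 2646R and 278, 299.6 and 340.0 CPM in treated 2646TN (-3.20 ± 0.61, adjusted p = 0.000842). Psmb10, an immunoproteasome subunit, differed by -1.83 ± 0.29 and Tapbp, which bridges the transporter and class I molecules, by -1.40 ± 0.28 (adjusted p = 8.56e-05 and 0.000882). All 3 treated 2646R libraries were below all 3 treated 2646TN libraries for each of these 4 genes. For B2m, named by its abundance, that was a condition of the choice. The heavy chain H2-D1, named after its values were seen, averaged 136 ± 43.2 CPM in treated 2646R and 656 ± 185 CPM in treated 2646TN (-2.27 ± 0.53, adjusted p = 0.00436). H2-Q6 had 0 counts in treated 2646R and 83 in treated 2646TN, at least 33.5-fold lower with a floor of 3 counts over the 3 libraries, and H2-Q7 differed by -5.16 ± 1.05 (adjusted p = 0.0014). Reads of these heavy-chain copies can be split between them. Of the 17 tested members 4 were not called. Among them were the general chaperones Calr and Pdia3, which also serve other glycoproteins (0.19 ± 0.12 and -0.03 ± 0.13, adjusted p = 0.289 and 0.882). The other uncalled members belong to class I presentation itself.

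**Figure D2:**
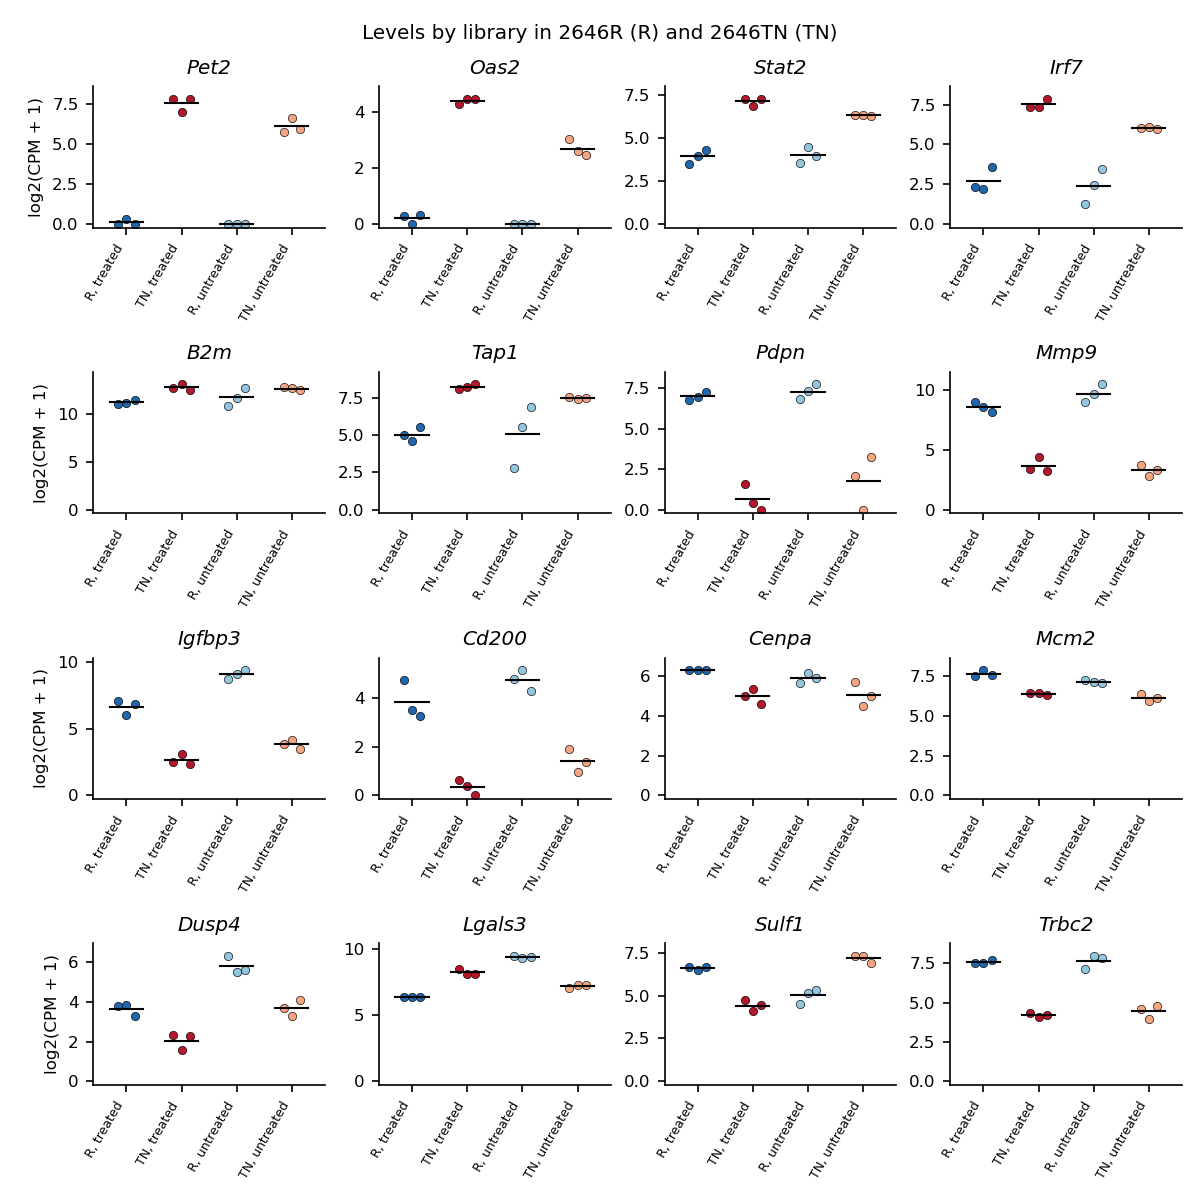
Level of 16 genes as log2(CPM + 1) in single libraries of treated 2646R, treated 2646TN, untreated 2646R and untreated 2646TN, with a bar at the mean of each group (3 tumours each). Stat2, Irf7, Tap1 and Pet2 lie lower in treated 2646R than in treated 2646TN, and Pdpn, Mmp9, Igfbp3 and Cenpa higher. The treated groups do not overlap for these genes, which was a condition of naming Pet2, Pdpn, Mmp9 and Igfbp3. Lgals3 and Sulf1 change their order between the treated and the untreated pair.

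Other genes with the largest negative values had no common list. Pet2 on chromosome X had 0, 0.234 and 0 CPM in treated 2646R, against 232, 130.5 and 234 CPM in treated 2646TN, which is 1 count against 2147 and a ratio of 2602 of 2646TN over 2646R (95% Poisson interval 467 to 102800). Ptprf, a receptor protein tyrosine phosphatase, had 0.868, 0.234 and 0 CPM in treated 2646R and 36.1, 31.5 and 39.4 CPM in treated 2646TN (-6.42 ± 0.64, adjusted p = 1.72e-08). C4b, a complement component, averaged 0.331 ± 0.389 CPM in treated 2646R and 15.8 ± 0.418 CPM in treated 2646TN (-5.52 ± 0.66, adjusted p = 3.44e-07). Tnfrsf19, a receptor of the TNF family, had 3 counts in treated 2646R and 105 in treated 2646TN, a ratio of 42.4 of 2646TN over 2646R (95% Poisson interval 14.5 to 206). Among abundant genes, Ifitm3, which blocks viral entry, averaged 1010.0 ± 185 CPM in treated 2646R and 2928 ± 965 CPM in treated 2646TN (-1.54 ± 0.25, adjusted p = 7.16e-05). Cavin1, a coat protein of caveolae, differed by -0.98 ± 0.17 and Fstl1, a secreted follistatin-like glycoprotein, by -0.83 ± 0.17 (adjusted p = 6.27e-05 and 0.000447). Npc2, a lysosomal cholesterol carrier, had -0.58 ± 0.14 (adjusted p = 0.00228) and was no longer called without the third treated 2646TN library (0.0563).

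**Figure D3:**
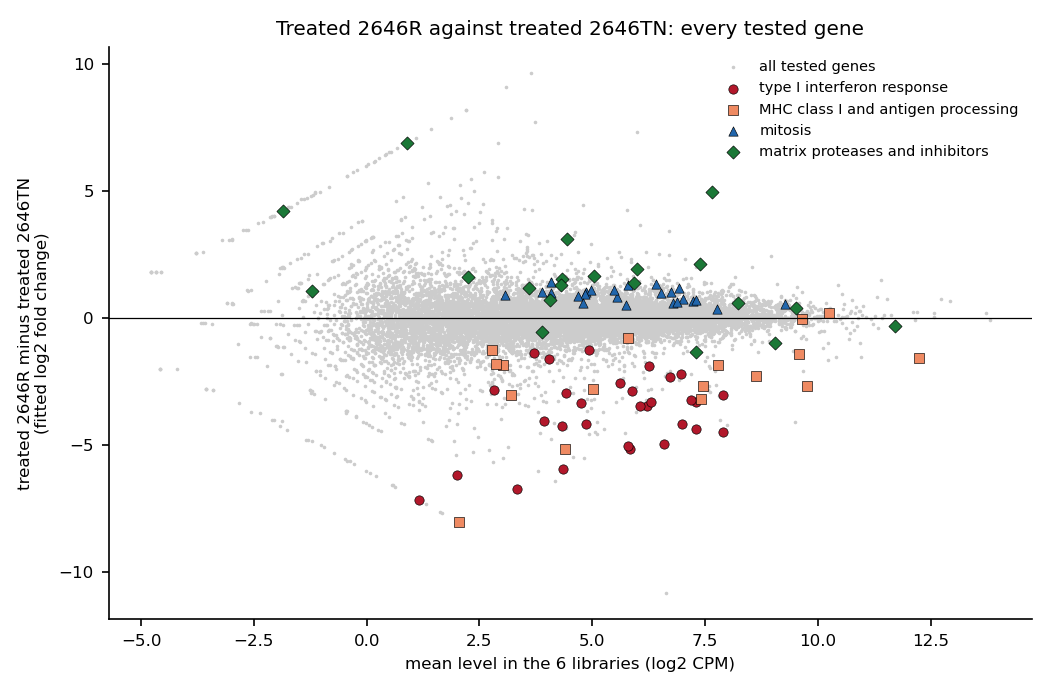
Log2 fold change of treated 2646R over treated 2646TN (vertical axis) against the mean level as log2 CPM (horizontal axis) for the tested genes, with genes that had no count in the 6 libraries left off. Coloured points mark the members of the type I interferon, MHC class I, mitosis and matrix protease lists. The interferon points lie below 0 at low and high levels alike, while the mitosis points form a narrow band above 0.

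Genes of cell division were higher in treated 2646R. In the mitosis list 18 of 24 members were called higher and none lower, with a median of 0.91, and in the DNA replication list 10 of 26 were higher and none lower, with a median of 0.52. The tumours of treated 2646R were closer to each other than those of treated 2646TN for Cenpa and Cdk1, but not for every member. Aurka had an SD of 8.23 CPM in treated 2646R and 4.41 CPM in treated 2646TN, and Bub1 and Bub1b also had the larger SD in treated 2646R. Cenpa, the histone variant of centromeres, had 78.6, 78.5 and 77.4 CPM in treated 2646R, against 31.3, 40.6 and 23.7 CPM in treated 2646TN (1.30 ± 0.23, adjusted p = 8.83e-05). Kif23, a motor protein of the dividing midzone, had 118, 130.2 and 119.7 CPM in treated 2646R and 39.5, 53.6 and 52.8 CPM in treated 2646TN (1.33 ± 0.18, adjusted p = 1.79e-06). Cdk1, the kinase that starts mitosis, averaged 167 ± 6.38 CPM in treated 2646R and 74.3 ± 24.1 CPM in treated 2646TN (1.17 ± 0.22, adjusted p = 0.000347). Tpx2, a spindle assembly factor, differed by 0.99 ± 0.22 (adjusted p = 0.00194). Top2a, which untangles chromosomes, averaged 733 ± 109 CPM in treated 2646R and 502 ± 166 CPM in treated 2646TN and was not called (adjusted p = 0.104), but passed without the third treated 2646TN library (0.0167).

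Among the replication genes, Mcm2, a subunit of the replicative helicase, had 178, 233 and 184 CPM in treated 2646R, against 86.7, 85.0 and 77.7 CPM in treated 2646TN (1.26 ± 0.20, adjusted p = 2.21e-05). Rrm2, which makes deoxynucleotides, differed by 1.09 ± 0.25, Fen1, the flap nuclease, by 1.04 ± 0.25, and Cdt1, which loads the helicase, by 0.70 ± 0.17 (adjusted p = 0.00218, 0.00288 and 0.00422). Lig1, the replicative ligase, averaged 646 ± 71.8 CPM in treated 2646R and 645 ± 312 CPM in treated 2646TN, with a wide spread in the second group, and was not called (adjusted p = 0.998). The number of replication genes called higher was 6 without the second treated 2646R library. Of the cyclins, CDK inhibitors and retinoblastoma family, 2 of 13 were higher and 2 lower, with a median of 0.08. Cdk4, the partner of D-type cyclins, was higher by 0.60 ± 0.12 and Cdkn1a, the p21 inhibitor, by 1.33 ± 0.33, while Cdkn2c, the p18 inhibitor, was lower by a log2 value of -0.87 ± 0.18 (adjusted p = 0.000341, 0.00686 and 0.000882). Ccnd1, cyclin D1, averaged 2526 ± 162 CPM in treated 2646R and 2390.0 ± 326 CPM in treated 2646TN, with groups that overlapped (adjusted p = 0.8).

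Genes that ERK signalling induces differed in part. In the MAPK output list 6 of 19 were called higher and 2 lower, with a median of 0.44, and 3 were higher without the second or without the third treated 2646R library. Untreated 2646R had 5 higher and 2 lower against untreated 2646TN, with a median of 0.48. In that pair 18.3% of all tested genes were higher and 18.4% lower. The difference of the treated and untreated contrasts was called lower at 1 member and higher at none. Treated 14559R had 12 higher and 1 lower against treated 14559TN, a pair in which 26.6% of all tested genes were higher and 22.7% lower. Dusp4, a phosphatase that shuts ERK off, had 12.8, 13.1 and 8.60 CPM in treated 2646R, against 3.95, 1.95 and 3.79 CPM in treated 2646TN (1.80 ± 0.39, adjusted p = 0.00112). Etv4, an ETS factor induced by ERK, had 113, 182 and 146 CPM in treated 2646R and 32.2, 37.0 and 87.8 CPM in treated 2646TN (1.48 ± 0.29, adjusted p = 0.000837). Spry2, a feedback inhibitor, was lower with -0.57 ± 0.15 (adjusted p = 0.00814), a call that was lost without the first treated 2646TN library (0.0513). In the list of RAS, RAF, MEK and ERK components 1 of 17 was higher and 1 lower, with a median of -0.005. Ksr1, a scaffold of the pathway, averaged 9.32 ± 3.11 CPM in treated 2646R and 26.3 ± 5.70 CPM in treated 2646TN (-1.50 ± 0.29, adjusted p = 0.000273). Mapk3, which encodes ERK1, was not called (adjusted p = 0.795).

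Growth factor ligands moved in both directions, with 6 of 19 higher, 4 lower and a median of 0.14, and with 3 higher without the third treated 2646TN library. Pdgfa, a ligand of the PDGF alpha receptor, had 394, 394 and 363 CPM in treated 2646R, against 175, 153 and 126 CPM in treated 2646TN (1.34 ± 0.17, adjusted p = 5.10e-07). Btc, betacellulin, a ligand of the EGF receptor, had 17.4, 38.9 and 30.1 CPM in treated 2646R and 5.36, 2.92 and 6.81 CPM in treated 2646TN (2.47 ± 0.55, adjusted p = 0.00284). Hgf, the ligand of MET, was near the limit of detection with 1 count in treated 2646R and 21 in treated 2646TN, a ratio of 25.5 of 2646TN over 2646R (95% Poisson interval 4.57 to 1005). Vegfb was lower with -0.96 ± 0.15 (adjusted p = 1.60e-05). Of 17 receptor tyrosine kinases 1 was higher and 4 lower, with a median of 0. Mertk, a receptor for dying cells, averaged 139.7 ± 16.0 CPM in treated 2646R and 261 ± 42.5 CPM in treated 2646TN (-0.90 ± 0.17, adjusted p = 0.000166). The 1 higher receptor was Pdgfrb with 1.17 ± 0.30 (adjusted p = 0.00854), which was not called without the third treated 2646TN library (0.0621). Axl, a receptor often raised in drug-tolerant melanoma cells, averaged 874 ± 104 CPM in treated 2646R and 1018 ± 164 CPM in treated 2646TN and was not called (adjusted p = 0.227).

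In the PI3K, AKT and FOXO list 5 of 20 were lower and none higher, with a median of -0.08, and 3 were lower without the second treated 2646R or without the third treated 2646TN library. Foxo3 and Foxo4, transcription factors that AKT holds out of the nucleus, differed by -0.81 ± 0.16 and -1.07 ± 0.21, and Tsc1, a brake on mTORC1, by -0.70 ± 0.15 (adjusted p = 0.000402, 0.000448 and 0.00119).

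Matrix proteases were higher in treated 2646R. In the list of matrix proteases and inhibitors 10 of 20 were called higher and 1 lower, with a median of 1.33. Mmp9, a gelatinase, had 498, 383 and 283 CPM in treated 2646R, against 9.32, 19.8 and 8.58 CPM in treated 2646TN (4.97 ± 0.55, adjusted p = 1.99e-06). Mmp2, the other gelatinase, had 358, 255 and 199.9 CPM in treated 2646R and 54.5, 85.4 and 44.7 CPM in treated 2646TN (2.15 ± 0.26, adjusted p = 2.55e-06). Plau, the urokinase that activates plasminogen, had 32.8, 50.6 and 32.4 CPM in treated 2646R and 3.39, 8.77 and 1.77 CPM in treated 2646TN (3.11 ± 0.38, adjusted p = 7.02e-07). For all 3 genes the groups lay far apart. Adamts4, an aggrecanase, was higher by 1.36 ± 0.21 (adjusted p = 1.32e-05). Mmp10, a stromelysin, had 48 counts in treated 2646R and 0 in treated 2646TN, at least 13.2-fold higher, and Adamts1, another aggrecan-cleaving protease, was the 1 lower member with -1.33 ± 0.21 (adjusted p = 5.75e-05). These last 2 genes were named after their values were seen. Timp2, an inhibitor of MMP2, averaged 2970.0 ± 311 CPM in treated 2646R and 3692 ± 839 CPM in treated 2646TN and was not called (adjusted p = 0.187).

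Among structural matrix genes, calls were made in both directions. Of 18 collagen chains 6 were higher and 1 lower, with a median of 0.47, but 2 were higher without the first treated 2646R or without the third treated 2646TN library. Col1a1, a chain of the main fibrillar collagen, had 4312, 4301 and 3300.0 CPM in treated 2646R, against 1657, 1628 and 972 CPM in treated 2646TN (1.49 ± 0.36, adjusted p = 0.00569). Its partner chain Col1a2 had 9716, 9831 and 9303 CPM in treated 2646R and 7042, 8096 and 3028 CPM in treated 2646TN and was not called (adjusted p = 0.0686), but passed without the second treated 2646TN library (0.0224). Col18a1, the source of endostatin, was higher by 0.89 ± 0.12 and Col15a1, a related basement membrane collagen, was lower with -1.79 ± 0.38 (adjusted p = 3.54e-06 and 0.00162). In the list of proteoglycans, elastic fibre and matricellular genes 4 of 23 were higher and 3 lower, with a median of 0.42. Over all tested genes 10.0% were higher and 10.1% lower. Spp1, osteopontin, had 422, 629 and 732 CPM in treated 2646R and 98.5, 196 and 153 CPM in treated 2646TN (2.00 ± 0.34, adjusted p = 0.000224). Ibsp, the bone sialoprotein, had 94 counts in treated 2646R and 0 in treated 2646TN, at least 25.9-fold higher. Fbn2, a microfibril protein, differed by 2.90 ± 0.34 and Vcan, a large proteoglycan, by 1.01 ± 0.16 (adjusted p = 1.17e-06 and 1.88e-05). Fn1, fibronectin, which was named by its abundance, averaged 2128 ± 156 CPM in treated 2646R and 1316 ± 194 CPM in treated 2646TN (0.69 ± 0.17, adjusted p = 0.00391).

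The mesenchymal transition list was split, with 3 of 17 higher, 3 lower and a median of 0.15 (-0.15 without the third treated 2646TN library). Shares over all tested genes were 10.0% and 10.1%. Cdh2, N-cadherin, averaged 34.8 ± 5.77 CPM in treated 2646R and 13.2 ± 2.23 CPM in treated 2646TN (1.39 ± 0.23, adjusted p = 4.54e-05). The repressors Snai2 and Zeb2 were lower, with -1.63 ± 0.33 and -0.72 ± 0.16 (adjusted p = 0.000699 and 0.00105). Vim, the intermediate filament of mesenchymal cells, averaged 3223 ± 219 CPM in treated 2646R and 3504 ± 1187 CPM in treated 2646TN and was not called (adjusted p = 0.735).

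Among TGF-beta, BMP and activin genes 6 of 22 were higher and 5 lower, with a median of 0.04, and 3 were lower without the second treated 2646TN library. The ligands Tgfb2 and Tgfb1 were both higher: Tgfb2 had 134, 73.3 and 83.2 CPM in treated 2646R, against 24.0, 15.3 and 18.4 CPM in treated 2646TN (2.33 ± 0.32, adjusted p = 1.43e-05), and Tgfb1 differed by 1.49 ± 0.29 (adjusted p = 0.000281). Grem1, a secreted BMP antagonist, had 233, 238 and 280.3 CPM in treated 2646R and 65.5, 68.5 and 51.0 CPM in treated 2646TN (2.02 ± 0.27, adjusted p = 1.03e-05). Tgfbr3, a co-receptor that binds TGF-beta 2, was lower with -1.42 ± 0.23 (adjusted p = 6.47e-05). In the Wnt list 1 of 16 was higher and 3 lower, with a median of -0.21, which was 0.02 without the third treated 2646R and 0.16 without the second treated 2646TN library. Lef1, a DNA-binding partner of beta-catenin, was the higher one, with 24.3, 18.7 and 13.4 CPM in treated 2646R and 1.69, 2.27 and 2.78 CPM in treated 2646TN (3.04 ± 0.46, adjusted p = 1.51e-05). Of 16 YAP and TEAD genes 2 were higher and 3 lower, against 10.0% and 10.1% of all tested genes, with a median of 0.08. Wwtr1, which encodes the co-activator TAZ, was higher by 0.91 ± 0.12 and Arhgef17, a guanine nucleotide exchange factor, lower with -0.68 ± 0.12 (adjusted p = 1.79e-06 and 8.29e-05).

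The higher genes of largest fold change came from diverse families. Tshz3, a zinc finger transcription factor, had 25.6, 22.2 and 27.3 CPM in treated 2646R and no count in treated 2646TN, at least 88.3-fold higher. Rbfox1, a splicing regulator best known in neurons and muscle, had 23.2, 17.6 and 10.4 CPM in treated 2646R and no count in treated 2646TN, at least 61.3-fold higher. Pdpn, podoplanin, a mucin-like membrane protein, had 107, 125 and 149 CPM in treated 2646R, against 1.98, 0.325 and 0 CPM in treated 2646TN (7.33 ± 0.62, adjusted p = 4.28e-08). No overlap between the groups was a condition of naming these 3 genes. Igfbp3, a carrier of insulin-like growth factors, had 132, 64.0 and 114 CPM in treated 2646R and 4.80, 7.47 and 4.04 CPM in treated 2646TN (4.27 ± 0.31, adjusted p = 4.34e-10). Ano1, a calcium-activated chloride channel, averaged 52.8 ± 14.6 CPM in treated 2646R and 2.44 ± 1.29 CPM in treated 2646TN (4.46 ± 0.43, adjusted p = 4.28e-08). Itgb3, a subunit of the vitronectin receptor, differed by 4.27 ± 0.53, Enpp1, which splits extracellular ATP, by 4.31 ± 0.74, and Ccbe1, a factor of lymphatic vessel growth, by 4.50 ± 0.81 (adjusted p = 1.93e-06, 0.000235 and 0.000235).

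The remaining 3 had 2 or 3 counts in treated 2646TN. Tnnt2, cardiac troponin T, had 156 counts in treated 2646R and 2 in treated 2646TN, a ratio of 64.4 (95% Poisson interval 17.8 to 531). Cd200, a ligand that restrains myeloid cells, had 196 counts in treated 2646R and 3 in treated 2646TN, a ratio of 53.9 (18.5 to 261). Fam20a, a secretory pathway pseudokinase, had 130 counts in treated 2646R and 3 in treated 2646TN, a ratio of 35.8 (12.2 to 173). Among abundant genes, Serbp1, an RNA-binding protein of ribosomes, averaged 3741 ± 220.4 CPM in treated 2646R and 2217 ± 196 CPM in treated 2646TN (0.76 ± 0.13, adjusted p = 6.33e-05). Cald1, an actin-binding protein, and Ncl, nucleolin, differed by 0.81 ± 0.13 and 0.49 ± 0.13 (adjusted p = 4.08e-05 and 0.00607).

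Molecules that face immune cells differed in both directions. Of 10 tested immune checkpoint and NK ligands 3 were higher and 5 lower, with a median of -0.09 (0.05 without the third treated 2646TN library), and 3 were lower without the second treated 2646R library or without the second or the third treated 2646TN library. Cd276, the checkpoint molecule B7-H3, had 16.3, 13.1 and 18.5 CPM in treated 2646R, against 1.13, 2.27 and 0.757 CPM in treated 2646TN (3.54 ± 0.49, adjusted p = 3.55e-06). Nt5e, the CD73 enzyme that makes adenosine, had 60 counts in treated 2646R and 3 in treated 2646TN, a ratio of 16.5 (95% Poisson interval 5.65 to 80.0). Lgals9, galectin-9, had 8.68, 11.7 and 22.8 CPM in treated 2646R and 110.1, 141 and 147 CPM in treated 2646TN (-3.22 ± 0.40, adjusted p = 3.39e-06). Cd274, which encodes PD-L1 and was named after its values were seen, averaged 4.97 ± 1.08 CPM in treated 2646R and 19.0 ± 8.75 CPM in treated 2646TN (-1.94 ± 0.47, adjusted p = 0.00349). Cd47, the signal that wards off phagocytes, was lower with -0.63 ± 0.15 (adjusted p = 0.00343). In the NF-kappaB, cytokine and chemokine list 2 of 18 were higher and 1 lower, with a median of 0.06.

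Metabolic lists leaned to the higher side where they differed at all. In the sterol and fatty acid synthesis list 10 of 25 were higher and none lower, with a median of 0.65, and 5 were higher without the third treated 2646R library. Srebf2, the factor that controls cholesterol synthesis, averaged 133 ± 7.03 CPM in treated 2646R and 69.4 ± 12.8 CPM in treated 2646TN (0.94 ± 0.18, adjusted p = 0.0003). The enzymes Sqle, Cyp51 and Elovl6 differed by 1.22 ± 0.27, 1.05 ± 0.23 and 1.32 ± 0.26 (adjusted p = 0.00151, 0.00164 and 0.000426). Fasn and Scd2, which make fatty acids, had -0.02 ± 0.22 and 0.16 ± 0.17 and were not called (adjusted p = 0.957 and 0.555). In the glycolysis and hypoxia list 7 of 26 were higher and 1 lower, with a median of 0.49, and 4 were higher without the second treated 2646TN library. Car9, a hypoxia-induced carbonic anhydrase, had 11.3, 10.1 and 9.87 CPM in treated 2646R, against 1.98, 0.325 and 0 CPM in treated 2646TN (3.73 ± 0.50, adjusted p = 1.96e-06), and Ldha, lactate dehydrogenase, differed by 0.76 ± 0.16 (adjusted p = 0.000636). Aldoa, an aldolase, was not called (adjusted p = 0.606). In the oxidative phosphorylation list 3 of 27 were higher and 1 lower, with a median of 0.03. The shares over all tested genes were 10.0% and 10.1%. Ndufa4 and Cox6c, subunits tied to cytochrome oxidase, were higher by 1.86 ± 0.34 and 0.60 ± 0.12 (adjusted p = 0.000161 and 0.000472).

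In the list of ATF4 and unfolded protein response genes 4 of 25 were higher and 1 lower, with a median of 0.42, and Slc7a5, a leucine transporter, was higher by 1.24 ± 0.28 (adjusted p = 0.00191). Of 21 p53 targets 4 were higher and 1 lower, with a median of 0.40. Zmat3, an RNA-binding p53 target, and Tnfrsf10b, a TRAIL receptor, differed by 0.86 ± 0.18 and 1.22 ± 0.29 (adjusted p = 0.000807 and 0.0025). In the BCL2 family 1 of 15 was higher and 4 lower, with a median of -0.15, which was 0.05 without the third treated 2646R and 0.01 without the first treated 2646TN library. The higher one was Bok, a pro-death member, with 44.5, 50.6 and 38.2 CPM in treated 2646R and 10.7, 17.5 and 20.7 CPM in treated 2646TN (1.44 ± 0.28, adjusted p = 0.000295), and Bnip3l, a mitophagy receptor, was lower with -0.61 ± 0.14 (adjusted p = 0.00164). Mcl1, a survival member, was not called (adjusted p = 0.333). Of 21 dissociation stress genes 4 were higher and none lower, with a median of 0.58, and Hsph1, a heat shock chaperone, differed by 1.11 ± 0.22 (adjusted p = 0.000537). The part of tissue dissociation in these values was not tested.

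In the lysosome and autophagy list 1 of 25 was higher and 7 lower, with a median of -0.18, and 3 were lower without the second and 4 without the third treated 2646R library. Grn, progranulin, had 495, 640.0 and 606 CPM in treated 2646R, against 1418, 1375 and 2680.0 CPM in treated 2646TN (-1.65 ± 0.20, adjusted p = 7.60e-07). Ctsa, a protective lysosomal carboxypeptidase, differed by -0.53 ± 0.13 (adjusted p = 0.00324). Of 21 NRF2 antioxidant targets 5 were higher and 4 lower, with a median of 0.06, and 3 were higher without the first treated 2646R library. Gsto1 was higher by 0.72 ± 0.14, while Gstm1, another glutathione transferase, and Keap1, which marks NRF2 for degradation, were lower with -1.38 ± 0.23 and -0.64 ± 0.13 (adjusted p = 0.0005, 0.000104 and 0.000692).

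Among drug efflux and drug metabolism genes 2 of 13 were higher and 2 lower, with a median of 0.20 (-0.20 without the first treated 2646R library). All tested genes had shares of 10.0% and 10.1%. Abcg2, an efflux pump of many drugs, averaged 60.2 ± 8.92 CPM in treated 2646R and 19.9 ± 1.79 CPM in treated 2646TN (1.59 ± 0.25, adjusted p = 2.87e-05). Aldh1l2, a mitochondrial folate enzyme, had 35 counts in treated 2646R and 0 in treated 2646TN, at least 9.63-fold higher. Abca1, a cholesterol exporter, was lower with -1.36 ± 0.32 (adjusted p = 0.00348).

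Of 5 tested pigment cell genes 1 was higher and 2 lower, with a median of -0.28. Mitf averaged 28.8 ± 4.87 CPM in treated 2646R and 13.9 ± 2.23 CPM in treated 2646TN (1.04 ± 0.26, adjusted p = 0.00403), while Gpnmb, a melanosomal glycoprotein that Mitf can induce, averaged 6.04 ± 1.72 CPM in treated 2646R and 21.0 ± 7.39 CPM in treated 2646TN (-1.78 ± 0.41, adjusted p = 0.00344). Of 11 neural crest and glial genes none was higher and 2 lower, with a median of -0.17, namely Snai2 and Tfap2b, a crest transcription factor (-1.32 ± 0.31, adjusted p = 0.00374). Of 14 smooth muscle contractile genes 2 were higher and 3 lower, against 10.0% and 10.1% of all tested genes, with a median of 0.05. Mylk, the kinase that starts contraction, had 56.0, 66.1 and 33.6 CPM in treated 2646R and 206, 239 and 278 CPM in treated 2646TN (-2.21 ± 0.35, adjusted p = 8.89e-05).

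Markers of other cells were measured beside these results. Macrophage markers summed to 117 to 144 CPM in treated 2646R and 31.5 to 80.8 CPM in treated 2646TN, with 4 of 14 tested markers higher, none lower and none at 0 in all 6 libraries. Lyz2, lysozyme of myeloid cells, differed by 1.77 ± 0.44 (adjusted p = 0.00565). Fibroblast markers summed to 14400 to 16160 CPM in treated 2646R and 5474 to 12640 CPM in treated 2646TN, with 2 of 11 higher and 4 lower. Most of that sum came from Col1a1, Col1a2 and Col3a1, which are members of the collagen list above. The higher markers were Col1a1 and Fap, and the lower ones Pdgfra, Lum, Dpep1 and Ly6c1. Pericyte markers summed to 205 to 270 CPM in treated 2646R and 103 to 147 CPM in treated 2646TN, with 3 of 5 higher, none lower and Kcnj8 at 0. The libraries come from cells picked by strong GFP after staining for CD45. The part of macrophages, fibroblasts and pericytes in the protease, collagen and immune values was not tested. Endothelial markers summed to 69.5 to 99.1 CPM in treated 2646R and 79.5 to 96.7 CPM in treated 2646TN, with 1 of 8 lower. In each of the 6 treated libraries of this pair neutrophil markers summed to at most 1.52 CPM and adipocyte markers to at most 1.77 CPM. For keratinocytes and skeletal muscle 5 of 10 and 6 of 12 markers were at 0 in all 6. Erythroid markers reached 239 CPM in treated 2646R and 439.6 CPM in treated 2646TN, with none of 4 called.

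The lymphocyte sum of 181 to 205 CPM in treated 2646R, against 16.6 to 20.2 CPM in treated 2646TN, was almost wholly Trbc2, a T cell receptor constant segment. Trbc2 had 181, 182 and 205 CPM in treated 2646R and 18.9, 16.2 and 17.7 CPM in treated 2646TN (3.42 ± 0.31, adjusted p = 1.72e-08). Cd3g, Cd79a, Ms4a1, Gzmb and Ncr1 had no count in any of the 6 libraries, and Cd3e had 0 counts in treated 2646R and 2 in treated 2646TN. Trbc2, Cd3g and Cd3e were chosen for this description after their values were seen.

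The untreated tumours of the same clones answer whether a difference was already there without drug. Untreated 2646R differed from untreated 2646TN at 2431 higher genes, 18.3% of those tested, and 2438 lower genes, 18.4%, which is 36.6% in both directions. Of the genes called in the treated pair, 874 higher ones were also higher in the untreated pair, which is 65.6% of the treated and 36.0% of the untreated list, and 880 lower ones were also lower, 65.9% and 36.1%. The treated and untreated pairs share no library. Opposite calls were made for 20 genes higher and 18 genes lower in the treated pair. Type I interferon genes were lower in the untreated pair at 27 of 30 members with a median of -2.53. None of the 30 was called in the difference between the pairs, where their median was -0.75. Only 1.78% of all tested genes were called negative in that difference, so no call among 30 genes says little. The summed type I level was 366, 323 and 518 CPM in treated 2646R and 3849, 3564 and 4131 CPM in treated 2646TN. In untreated tumours it was 182, 336 and 624 CPM in 2646R and 1957, 1799 and 1500 CPM in 2646TN. Mitosis genes were higher in the untreated pair at 2 of 24 with a median of 0.01, but only 1 of the 24 was called in the difference, Kif23 (1.05, adjusted p = 0.0113). In the interferon gamma list 10 of 18 were lower in the untreated pair and in the MHC class I list 6 of 17. In the difference between the pairs no member of either list was called lower, with medians of -1.23 for the gamma list and -0.97 for the MHC class I list. Cd74 of the gamma list was called higher (2.38, adjusted p = 0.0449). The summed MHC class I level was 3867, 5972 and 10680 CPM in untreated 2646R and 12000, 11490 and 10100 CPM in untreated 2646TN.

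**Figure D4:**
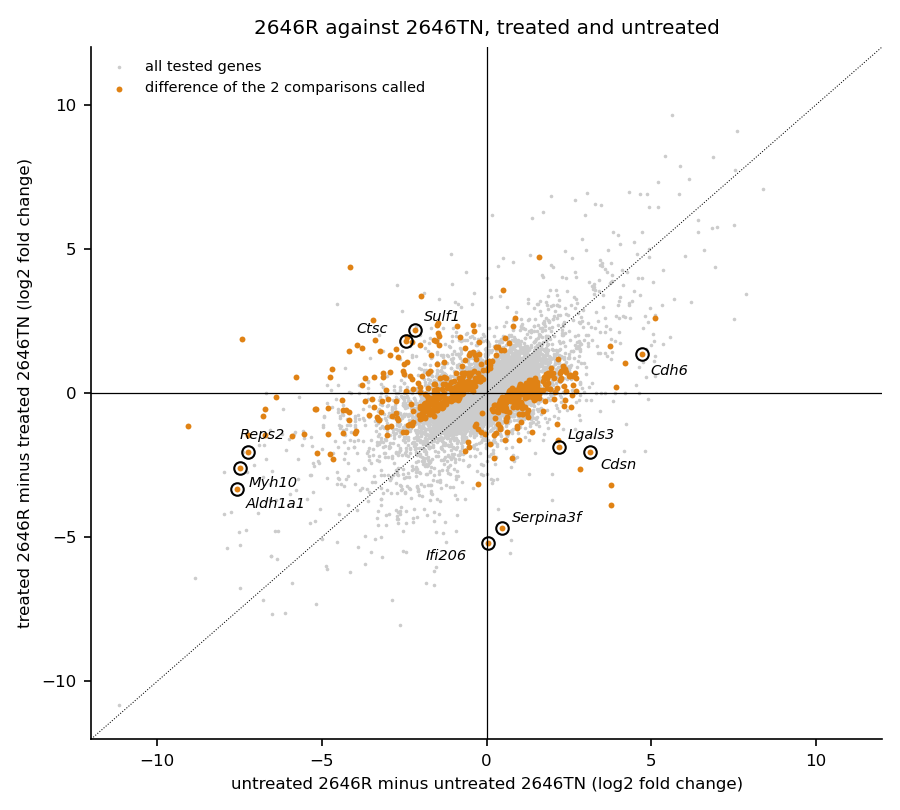
Log2 fold change of 2646R over 2646TN in treated tumours (vertical axis) against the same in untreated tumours (horizontal axis). Orange points mark genes whose treated and untreated values differ at an adjusted p under 0.05, and circles mark the genes named for the largest such differences. Lgals3, positive in the untreated and negative in the treated pair, and Sulf1, the reverse, lie in opposite quadrants.

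The difference between the treated and the untreated contrast was called at 551 genes, 4.15% of those tested, with 314 positive, 2.36%, and 237 negative, 1.78%. These counts depend on single libraries: leaving out the first treated 2646R library gave 205 and 147, the third treated 2646TN library 488 and 343, the first untreated 2646R library 184 positive, and the first treated 2646TN, first untreated 2646TN or second untreated 2646TN library 137, 153 or 157 negative. Macrophage markers changed their order between the pairs, with summed levels of 117 to 144 CPM in treated 2646R and 31.5 to 80.8 CPM in treated 2646TN, but 37.9 to 76.5 CPM in untreated 2646R and 182 to 282 CPM in untreated 2646TN, and their part in this difference was not tested. Lgals3, galectin-3, averaged 81.8 ± 0.983 CPM in treated 2646R and 300.3 ± 50.6 CPM in treated 2646TN, but 667 ± 45.3 CPM in untreated 2646R and 145 ± 10.9 CPM in untreated 2646TN. It was thus lower in treated 2646R (-1.88 ± 0.32, adjusted p = 0.000231) and higher in untreated 2646R (2.20, adjusted p = 1.40e-05), a difference of -4.08 (adjusted p = 2.62e-05). Sulf1, which trims heparan sulfate and so tunes growth factor binding, showed the reverse: 96.0 ± 6.08 CPM in treated 2646R and 20.8 ± 4.89 CPM in treated 2646TN, but 32.5 ± 9.18 CPM in untreated 2646R and 144 ± 22.3 CPM in untreated 2646TN. Its difference of contrasts was 4.36 (adjusted p = 0.000247). Snai2 also changed its order, with 8.68, 13.8 and 10.4 CPM in treated 2646R and 32.8, 43.5 and 25.7 CPM in treated 2646TN, but 37.7 ± 5.83 CPM in untreated 2646R and 19.1 ± 3.11 CPM in untreated 2646TN (difference -2.60, adjusted p = 0.000954).

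Serpina3f, a secreted protease inhibitor, averaged 0.362 ± 0.627 CPM in treated 2646R and 10.7 ± 3.34 CPM in treated 2646TN, and 2.43 ± 1.76 CPM in untreated 2646R and 1.73 ± 0.714 CPM in untreated 2646TN. Aldh1a1, a retinaldehyde dehydrogenase, averaged 1.80 ± 1.64 CPM in treated 2646R and 18.8 ± 7.15 CPM in treated 2646TN, and 0.170 ± 0.148 CPM in untreated 2646R and 35.5 ± 4.05 CPM in untreated 2646TN. Cdh6, a cadherin, averaged 12.1 ± 3.85 CPM in treated 2646R and 4.72 ± 0.311 CPM in treated 2646TN, and 198 ± 31.3 CPM in untreated 2646R and 7.52 ± 3.96 CPM in untreated 2646TN. The treated contrast of Cdh6 (1.35 ± 0.46, adjusted p = 0.0367) was lost on leaving out the first treated 2646R library (0.155) or the first, the second or the third treated 2646TN library (0.0671, 0.0763 and 0.116). The remaining 5 were Ifi206, Myh10, a non-muscle myosin, Reps2, an endocytic adaptor, Ctsc, a lysosomal dipeptidase, and Cdsn, a protein of cell contacts in skin.

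Cdsn and Ctsc were called in opposite directions in the treated and the untreated pair. Cdsn averaged 0.547 ± 0.541 CPM in treated 2646R and 2.34 ± 0.926 CPM in treated 2646TN, but 12.5 ± 3.41 CPM in untreated 2646R and 1.44 ± 0.647 CPM in untreated 2646TN, where it was called higher (3.13, adjusted p = 5.28e-05). Its treated call (adjusted p = 0.0428) was lost without the first or the third treated 2646R library (0.162 and 0.147) or the first or the third treated 2646TN library (0.166 and 0.0699). Ctsc averaged 6.86 ± 0.868 CPM in treated 2646R and 1.92 ± 0.765 CPM in treated 2646TN, but 3.28 ± 2.04 CPM in untreated 2646R and 17.7 ± 5.08 CPM in untreated 2646TN, where it was called lower (-2.45, adjusted p = 0.000375). Its treated call (adjusted p = 0.0246) was lost without the first or the third treated 2646R library (0.0601 and 0.0544) or the first or the second treated 2646TN library (0.0672 and 0.0769). Myh10 averaged 1.87 ± 1.50 CPM in treated 2646R and 11.8 ± 6.75 CPM in treated 2646TN, and its call (adjusted p = 0.0084) was lost without the third treated 2646R library (0.0506) or the first treated 2646TN library (0.0682), and with DESeq2 (0.0671). Reps2 averaged 2.66 ± 1.33 CPM in treated 2646R and 11.1 ± 1.96 CPM in treated 2646TN, and its call (adjusted p = 0.0128) was lost without the second or the third treated 2646R library (0.0551 and 0.0688).

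The second pair of treated clones, 14559R and 14559TN, was compared under the same treatment. Treated 14559R differed from treated 14559TN at 3539 higher genes, 26.6%, and 3022 lower genes, 22.7%, which is 49.4% in both directions. Of the genes higher in treated 2646R, 899 were also higher in treated 14559R, 67.4% of the 2646R list and 25.4% of the 14559R list, and 792 lower ones were also lower, 59.3% and 26.2%. The pairs share no library, and 71 higher and 95 lower genes of the 2646R pair went the opposite way in the 14559R pair. The 10 genes named for the largest change in both pairs were Tnnt2, Ccbe1, Acsbg1, Car9 and Tenm4 on the higher side, and Pet2, Gbp8, Oas2, Ddx60 and C4b on the lower. Tenm4, a teneurin membrane protein, had 123, 144 and 102 CPM in treated 2646R and 6.21, 7.47 and 14.6 CPM in treated 2646TN (3.68 ± 0.44, adjusted p = 3.36e-06), with 5.61 in the 14559R pair. Acsbg1, an acyl-CoA synthetase, had 4.19 ± 0.75 (adjusted p = 0.000296), and was at 0 counts in treated 14559TN. Car9 had 5.79 in the 14559R pair, Gbp8 -4.51, Ddx60 -3.94 and C4b -3.85.

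The type I interferon list was lower at 25 of 30 members in the 14559R pair with a median of -2.44, and 6 members were called lower in the difference of the 2646R and 14559R contrasts. The MHC class I list was lower at 4 of 17 and higher at 1 in the 14559R pair. That share of lower members was close to the 22.7% over all tested genes in the pair. In the difference of the contrasts 1 member of the MHC class I list was called lower. Ptprf, Aim2, H2-Q7, Tnfrsf19 and Cd200 of the genes named by size were not called in the 14559R pair. All 24 mitosis genes were higher in treated 14559R with a median of 3.08, and 21 of them were called lower in the difference of the contrasts. In sterol and fatty acid synthesis 23 of 25 and in glycolysis and hypoxia 25 of 26 were higher in treated 14559R, with 17 and 20 called lower in that difference. The difference itself was called higher at 1097 genes, 8.26%, and lower at 1659, 12.5%.

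**Figure D5:**
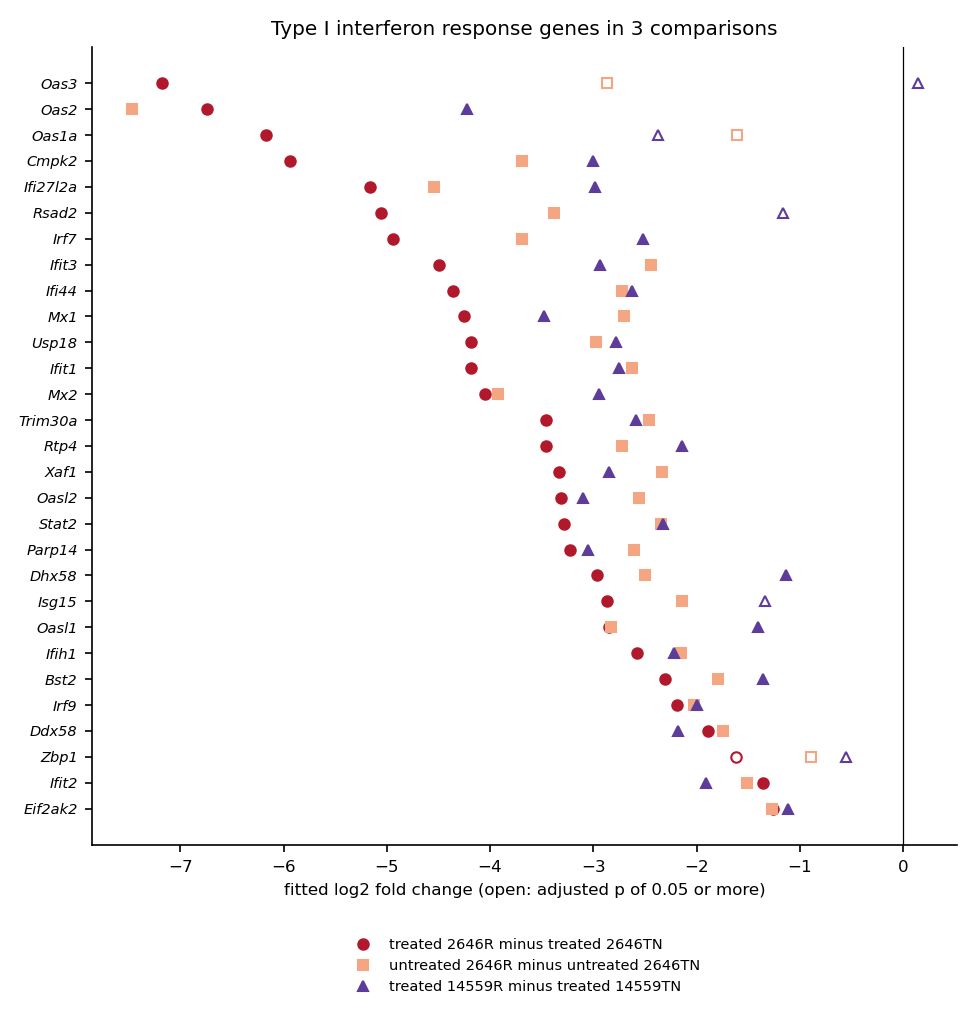
Log2 fold change of 29 of the 30 type I interferon genes in treated 2646R over 2646TN, untreated 2646R over 2646TN and treated 14559R over 14559TN, with open symbols for an adjusted p of 0.05 or more. In the treated 2646R pair the values run from -7.18 to -1.26, in the untreated 2646R pair from -7.47 to -0.894 and in the treated 14559R pair from -4.22 to 0.142. Of the 29 genes drawn, 28, 26 and 24 were called lower in these comparisons.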

How the data were processed

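Libraries are Lexogen QuantSeq 3′ libraries of sorted GFP-positive cells from dissociated tumours, stained for CD45 and dead cells, per the labels' protocols. Reads were aligned with STAR 2.6.0c to GRCm38, per the submitters' processing notes. The deposited values are whole-number read counts per gene from featureCounts 1.6.2 with strand used, per the file headers, for 54532 features, of which 54409 have a symbol.

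The counts were fitted with edgeR 4.0.16 in R 4.3.3: filterByExpr by group left 13286 genes, TMM factors scaled libraries, and 1 robust quasi-likelihood fit held 30 libraries in 10 groups (20 residual degrees of freedom, biological coefficient of variation 18.2%). The 5 contrasts were 2646R over 2646TN treated and untreated, their difference, 14559R over 14559TN treated, and the difference of the 2 treated contrasts. Standard errors were derived by dividing each log2 fold change, unsigned, by √F. Levels are CPM with TMM factors. Totals of 3022801 to 5278453 counts set the precision. With 0 counts in a group a fold is a bound from a floor of 3 counts over its libraries. With 1 to 3 counts it is a ratio with a 95% Poisson interval. That interval covers only the counting error of the group with fewer counts, and takes the other count as exact. Nothing says that tumours came from separate mice, so p-values measure the spread between these samples. Libraries of a group had Spearman correlations of 0.948 to 0.954 in the treated pair and differed by more than counting error (chi-square per degree of freedom 5.47 to 16.8).

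Named genes are the 12 largest changes per direction with no overlap and at least 10 CPM, the 5 most abundant called per direction, up to 4 called and 2 uncalled per list, the 5 largest differences between treated and untreated contrasts per sign, the 5 most shared with 14559R per direction, and 3 checks; the text gives examples of each. Members, the 33 gene lists and the 11 marker lists were chosen with earlier results of these data known. Alternatives were DESeq2 1.42.0, other scalings, filters, a fold threshold of 1.5, fewer libraries, and leaving out each library. The fit was also run on counts simulated from its own fitted levels and spread. Such counts follow the model by design, so that run cannot show that the calls hold in the real libraries. A few genes that these rules name are not reported here.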

Additional observations from a re-analysis of the deposited data

Results flagged for a closer look

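The effect of clone differed between treated and untreated tumours by a direct test of that difference. It was positive for 314 genes and negative for 237 genes at an adjusted p under 0.05 (edgeR's quasi-likelihood test), counts that moved with single libraries as given above. Among the named genes the log2 difference of the treated minus the untreated contrast was 5.21 for Reps2, 4.86 for Myh10, 4.36 for Sulf1, 4.24 for Ctsc and 4.24 for Aldh1a1. It was -5.26 for Ifi206, -5.17 for Cdsn, -5.15 for Serpina3f, -4.08 for Lgals3 and -3.35 for Cdh6. Reps2 had no count in untreated 2646R, so the size of its value is uncertain, and so are the sizes for Myh10 and Aldh1a1, which stood at 0.0789 and 0.170 CPM there. The same holds for Ifi206, Serpina3f and Cdsn, which had 4, 5 and 7 counts over the 3 treated 2646R libraries.

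The R against TN contrast of treated tumours also differed between 2646R and 14559R, again by a direct test. It was more positive in the 2646R pair at 1097 genes and more negative at 1659. Both differences share the treated 2646R and 2646TN libraries with the main comparison.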

How the results depend on the processing

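No paired analysis was possible because the labels give each tumour its own code and the groups share no replicate number. With a test against a fold of 1.5 (edgeR's glmTreat), 294 genes were higher and 358 lower in treated 2646R; higher members fell to 2 in MAPK output, growth factors 2, mitosis 3, DNA replication 1, collagens 1, sterol synthesis 1, glycolysis 1 and NRF2 targets 1, and lower members to 0 in PI3K, 2 in TGF-beta, 1 in lysosome and 2 in checkpoint. DESeq2 gave 11 higher glycolysis genes. With the 6 treated 2646R and 2646TN libraries alone 4 lysosome genes were lower, and the medians were 0.323 for growth factors, -0.056 for YAP and -0.588 for checkpoint; with the 12 libraries of 2646R and 2646TN growth factors had 0.511.

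Leaving out 1 library at a time gave 937 to 1314 higher and 839 to 1154 lower genes, and 184 to 488 positive and 137 to 343 negative differences of contrasts. Higher members ran from 6 to 12 in DNA replication, 3 to 5 in MAPK output, 3 to 6 in growth factors, 2 to 5 in collagens, 5 to 13 in sterol synthesis, 4 to 8 in glycolysis and 3 to 5 in NRF2 targets, and lower members from 3 to 5 in PI3K, TGF-beta and checkpoint and 3 to 6 in lysosome. List medians ran from 0.44 to 0.606 for MAPK output, 0 to 0.123 for receptor kinases, 0.039 to 0.335 for growth factors, -0.042 to 0.083 for cyclins, -0.332 to -0.067 for neural crest, -0.153 to 0.391 for the mesenchymal list, -0.173 to 0.156 for Wnt, 0.015 to 0.215 for YAP, -3.179 to -2.909 for interferon gamma, -2.267 to -1.871 for MHC class I, 0.487 to 0.984 for sterol synthesis, 0.27 to 0.498 for p53, -0.216 to 0.051 for BCL2, -0.245 to -0.13 for lysosome, -0.202 to 0.302 for drug efflux and -0.139 to 0.051 for checkpoint. The causes were not tested. Other scalings shifted the median of all genes by 0.014 and -0.011. Of 2247 pairs of a named gene and an alternative, 2174 kept the side of the threshold. Many of these genes were named because they were called in the same data, so a high share was built in. Among the 161 genes, 49 changed their call under some alternative. With the test against a fold of 1.5, 44 lost it, among them Col1a1, Mitf, Cdkn1a, Fn1, Foxo3 and Foxo4.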
